A study of Homo sapiens with 12 samples.

Results

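Rh30 is a human alveolar rhabdomyosarcoma cell line, from a childhood tumor of muscle-like cells, that carries the fusion of PAX3 with FKHR (now called FOXO1). The comparison described here is that of an Rh30 clone in which PAX3-FKHR was stably knocked down by a short hairpin RNA (KD1) with an Rh30 clone that carried a non-targeting control hairpin (CON). Its members were the arrays whose labels name KD over CON, which are 4 of the 12 arrays of the series, and the genes described are all those with a probe on them. Both clones carried the pSUPER.retro.puro vector and were grown with puromycin at 1 μg/mL for 24 h after plating, so that KD1 and CON were matched for the drug, whereas untransfected parental Rh30 cells (WT) were grown without it. KD1 and CON are each a single clone, and the 2 replicates are labelled samples of these clones, so the p-values measure the spread between samples of the same clones and not between clones. Each replicate was hybridized as a dye-swap pair, once with KD1 in Cy5 and once with KD1 in Cy3, and the pair of replicate 1 was on another slide than that of replicate 2, each beside the arrays of KD1 vs WT of the same replicate, so slide and replicate cannot be told apart.

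PAX3-FKHR joins the paired domain and the homeodomain of PAX3, which bind DNA, to the transactivation domain of FKHR, and it acts as a strong activator of transcription. In alveolar rhabdomyosarcoma it switches on genes of early muscle and neural development and holds the cells in a dividing state without full muscle differentiation. The question of the comparison is which transcripts differ when the level of the fusion is lowered in these cells.

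Differences were large for a few genes and small for most. Values are log2 ratios of KD1 over CON, positive when the transcript was more abundant in KD1. Of 15751 genes tested, each by its brightest probe, 167 (1.06%) were lower in KD1 and 135 (0.857%) were higher at an adjusted p under 0.05 in limma. A probe was tested if, on every array, its Cy3 or its Cy5 signal lay above 99% of the negative control spots. Over all 21925 probes tested the numbers were 225 (1.03%) lower and 171 (0.780%) higher, and 3775 probes had an unadjusted p under 0.05. In simulated data, described with the processing below, false calls made up a larger share of all calls than 0.05. Well above background were 71.1% to 73.2% of spots in Cy3 and 65.4% to 66.9% in Cy5 on the 4 arrays, and precision is set by how few arrays there are. The median log2 ratio of the lower genes was −1.70 and that of the higher genes 1.51, against −0.01 over all genes tested. All 396 probes past the threshold had the same direction on all 4 arrays and differed by at least 2-fold on average, while 51.1% of all tested probes had the same direction on all 4 arrays. The 396 were chosen on these same arrays, so their size and shared direction are no separate support for the calls. The median absolute difference between the replicates was 0.21 on the log2 scale, and that between the arrays of a dye swap was 0.17 in replicate 1 and 0.19 in replicate 2. By the fold criteria alone, with no test, 376 genes (2.39%) were at least 2-fold lower and 354 (2.25%) at least 2-fold higher on average with the same direction on 4 arrays. When each dye-swap pair was taken by itself, these numbers were 467 and 308 in replicate 1 and 575 and 632 in replicate 2. With normexp background correction, an offset of 50 and loess, which shrinks the ratios of dim probes, 17 probes remained lower and 9 higher, all 26 of them among the 396.

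**Figure D1:**
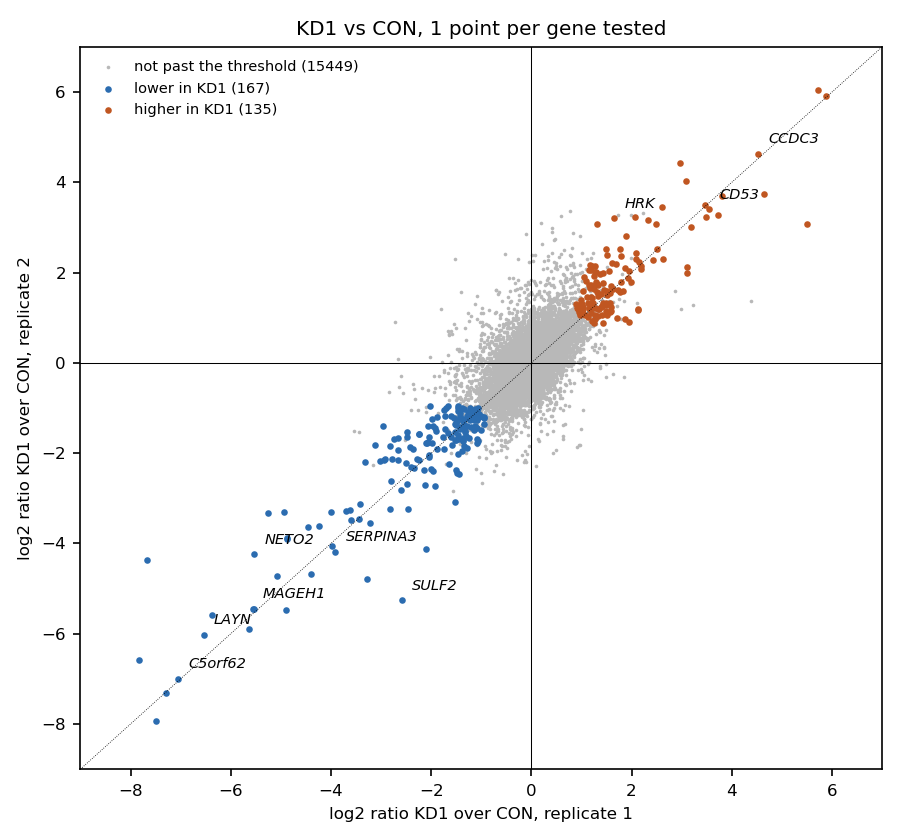
The plot of both replicates shows 1 point per gene tested, with the log2 ratio of KD1 over CON in replicate 1 on the horizontal axis and in replicate 2 on the vertical axis. The 167 lower genes in blue lie in the lower left, the 135 higher genes in orange in the upper right, and the dotted line marks equal values.

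The genes joined in the fusion did not pass the threshold. The study itself found PAX3-FKHR lower in KD1 than in CON by real-time RT-PCR and by Western blot. The array has no probe across the junction, and its brightest probes for PAX3 and FOXO1 also measure the unrearranged genes. In the order used throughout, replicate 1 with KD1 in Cy5 and in Cy3 and then replicate 2 likewise, the brightest PAX3 probe had log2 ratios of −0.45, −0.34, −0.50 and −0.41 (adjusted p = 0.326 in limma) and the brightest FOXO1 probe −0.14, −0.37, −0.49 and −0.68 (adjusted p = 0.432 in limma), all 8 values below 0. A PAX3 probe beside the brightest one had −0.25 and −0.32 in the replicates. A distant one, downstream in the gene at chr2:222773025-222773084 on build hg18, had 0.16 and −0.33. Neither passed. Whether the distant probe lies in the part of PAX3 kept in the fusion was not examined. Of the other PAX and FOXO genes, 5 more were tested and none passed, from −0.58 for PAX4 to 0.20 for PAX8. Of 11 markers of skeletal muscle and alveolar rhabdomyosarcoma, 9 were well above background in both clones on all 4 arrays, among them MYOD1, MYOG, DES, FGFR4 and MYCN. On no array was TFAP2B well above background in either clone, and CDH3 was so on 3 of 4 in CON. MYOG, the regulator of terminal muscle differentiation, had −1.35 and −0.92 and missed the threshold (adjusted p = 0.0505 in limma), and NOS1, used as a marker of fusion-positive tumors, had −0.81 and −1.32 (adjusted p = 0.148). For KD1 over WT and for WT over CON, MYOG had 0.60 and −1.73 (adjusted p of the latter = 0.0183 in limma), so it was not lower in KD1 than in WT.

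Of 38 genes known as targets of PAX3-FOXO1, 26 were tested, 2 were lower and none was higher, against 1.06% lower and 0.857% higher over all genes tested. Their median was −0.48, with −0.36 in replicate 1 and −0.73 in replicate 2, and 18 of the 26 (69.2%) were lower on all 4 arrays, against 26.5% of all genes tested. The lower members were DCX, the microtubule protein of migrating neurons, with −2.13, −2.12, −2.62 and −2.78 (adjusted p = 0.00308 in limma), and CNR1, the cannabinoid receptor, with −2.94, −2.39, −2.03 and −1.83 (adjusted p = 0.0265 in limma, and 0.0514 after median centring). CNR1 was well above background in KD1 on 2 of the 4 arrays. Another CNR1 probe, not tested for its low signal, had −0.64. For KD1 over WT and for WT over CON, CNR1 had −4.04 and 1.62 (adjusted p of the latter = 0.0804 in limma), while DCX had −0.90 and −1.52 (adjusted p of the latter = 0.0305 in limma). ABAT, which breaks down GABA, had −1.36 (adjusted p = 0.0593), CXCR4, a chemokine receptor of cell migration, −0.50 and −2.07 (adjusted p = 0.308), FGFR4 −0.48, IGF1R −0.55 and MYCN −0.55, none of them past the threshold. The highest members were POU4F1 at 0.60 and ASS1 at 0.40. The list was drawn up with earlier results of these data known, so its counts are no test.

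The study names 11 genes as lower in its microarray text, and they were chosen on these arrays among others. NTF3, which encodes neurotrophin 3 and was the lowest member of the list of receptor tyrosine kinases and their ligands, had −4.59, −4.22, −4.68 and −4.69 (mean −4.55 ± 0.20, adjusted p = 0.000407 in limma) with KD1 well above background on 2 arrays. OLIG1, a transcription factor of the oligodendrocyte lineage, had −5.23, −4.57, −5.90 and −5.04 (mean −5.19 ± 0.41, adjusted p = 0.00599 in limma), also with KD1 well above background on 2 arrays. Both were far below 0 on every array, but a dimmer OLIG1 probe that failed the signal filter had only −0.10 and −0.51. That dimmer probe was well above background in both clones on all 4 arrays, so the OLIG1 probes disagree in size. SULF2, a sulfatase that trims heparan sulfate outside the cell, had −2.74, −2.43, −5.20 and −5.32 (mean −3.92 ± 1.89, adjusted p = 0.0346 in limma), lower in replicate 2 than in replicate 1, and its call was lost when arrays were centred on their median in place of lowess (adjusted p = 0.0556). ALDH1A3, which makes retinoic acid, had −1.53 and −3.08 in the replicates (adjusted p = 0.0290 in limma), while MXRA5, a matrix protein, had −1.70 and −2.24 (adjusted p = 0.0564) and TOX3, an HMG-box protein, −0.91 and −1.90 at its brightest probe (adjusted p = 0.0527). A second TOX3 probe had −1.45 and −2.48 and did pass (adjusted p = 0.0227 in limma). CPT1A, EYA2, MCTP2 and SEPP1 were not tested because their signal did not exceed the negative controls on every array. CPT1A encodes the rate-limiting enzyme of fatty acid import into mitochondria. Its brightest probe had −1.35, −0.78, −1.34 and 0.34, was well above background on 2 arrays in KD1 and 3 in CON, and had a sign that differed between arrays, while its other probe had −2.45, −3.02, −1.94 and −3.01 with KD1 well above background on 0 arrays and CON on 3. CPT1B, the muscle form, had 0.26 and 0.87 (adjusted p = 0.324), and CPT1C, the brain form, −1.13 and −0.38 (adjusted p = 0.305). GAPDH was at 0.43 and ACTB at 0.28, neither past the threshold.

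The upstream sequences of 3 lower genes named by the study and of CPT1A are shown because the fusion binds DNA through a paired domain and a homeodomain. Each is the 250 bases before the first start that RefSeq lists for the gene on GRCh38.p14, 5′ to 3′ on the strand of the gene. Capitals mark the letters GTTCC with the variant GTTCT and the letters GTTAC with the variant GTTAT, all read by the study as paired-domain sites, and ATTA, read as homeodomain sites, on either strand, and overlapping matches run together. They are those of CNR1 at chr6:88167350-88167599 on the minus strand, NTF3 at chr12:5431858-5432107 on the plus strand, SULF2 at chr20:47786628-47786877 on the minus strand and CPT1A at chr11:68844278-68844527 on the minus strand.
CNR1: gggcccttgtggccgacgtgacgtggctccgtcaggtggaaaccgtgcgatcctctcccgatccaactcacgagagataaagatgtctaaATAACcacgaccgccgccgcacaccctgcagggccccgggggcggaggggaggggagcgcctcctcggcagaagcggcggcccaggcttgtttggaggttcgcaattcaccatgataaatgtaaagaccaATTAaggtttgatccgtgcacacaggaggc
NTF3: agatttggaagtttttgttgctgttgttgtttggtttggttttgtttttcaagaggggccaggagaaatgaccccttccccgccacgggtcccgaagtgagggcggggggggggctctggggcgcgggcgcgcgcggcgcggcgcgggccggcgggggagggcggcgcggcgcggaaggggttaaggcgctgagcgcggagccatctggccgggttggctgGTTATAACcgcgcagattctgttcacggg
SULF2: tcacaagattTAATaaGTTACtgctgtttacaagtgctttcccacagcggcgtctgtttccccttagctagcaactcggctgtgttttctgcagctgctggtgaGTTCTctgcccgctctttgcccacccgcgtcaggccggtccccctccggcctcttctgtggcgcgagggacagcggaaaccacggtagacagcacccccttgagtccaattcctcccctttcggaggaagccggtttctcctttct
CPT1A: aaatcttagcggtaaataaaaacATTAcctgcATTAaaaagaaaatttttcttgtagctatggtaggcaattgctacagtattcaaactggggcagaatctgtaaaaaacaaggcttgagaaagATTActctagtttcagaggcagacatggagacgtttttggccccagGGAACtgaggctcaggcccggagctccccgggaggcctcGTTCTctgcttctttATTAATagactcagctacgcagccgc
CNR1 holds 1 match to the paired-domain letters and 1 to the homeodomain letters, NTF3 holds 2 and 0, SULF2 holds 2 and 1, and CPT1A holds 2 and 5. Such short letters are common. Among 27305 genes with a sequence, 71.3% hold the paired-domain letters, 48.2% the homeodomain letters and 37.8% both. Among the 99 lower genes that could be matched by symbol, 26.3% hold both, and among the 80 matched higher genes 21.3% do, against 24.5% of 9652 matched genes tested. A match only describes the letters of these windows.

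The surface receptor layilin gave the largest decrease among genes measured well above background in both clones on all 4 arrays. LAYN, which encodes this hyaluronan receptor, had log2 ratios of −6.41, −6.67, −5.91 and −6.14. All 4 arrays lay below −5, so that the transcript was 77.9-fold lower in KD1 (mean −6.28 ± 0.37, SD, n = 2, adjusted p = 2.52e-05 in limma). NETO2, an auxiliary subunit of kainate receptors, had −5.57, −5.50, −4.40 and −4.07, and its replicates lay further apart (mean −4.88 ± 0.92, adjusted p = 0.000812 in limma). MAGEH1, a member of the melanoma antigen family encoded on chromosome X, had −5.65, −5.48, −5.47 and −5.41 (mean −5.50 ± 0.09, adjusted p = 0.000781 in limma). A dimmer probe listed under LAYN failed the signal filter and had −0.81 and −0.32. It is placed on the minus strand and the LAYN probe above on the plus strand, so it is not a second measure of the same transcript. These 3 genes had the lowest means of the 118 lower genes that carried a symbol and were measured in both clones on every array. Their probes lie on build hg18 at chr11:110936670-110936729, chr16:45673281-45673340 and chrX:55496602-55496661.

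The rest of the 12 largest decreases include surface receptors, signalling proteins and ligands. SIRPA, the receptor for CD47, had replicate values of −4.88 and −3.91 (adjusted p = 0.00142 in limma). ARHGAP25, a GTPase-activating protein for Rac known from blood cells, had −4.87 and −3.87 (adjusted p = 0.00296 in limma). Both were nearer to 0 in replicate 2 than in replicate 1. RASD1, a Ras-like protein induced by glucocorticoids (adjusted p = 0.0207 in limma), had −3.97 and −4.06, and GAS7, a growth-arrest gene that acts on the actin cytoskeleton, had −3.43 and −3.47. In these genes the replicates lay close together. DLL3, an inhibitory ligand of Notch, had −3.78, −4.20, −3.47 and −3.14 (mean −3.65 ± 0.49, adjusted p = 0.000812 in limma), NLRX1, a NOD-like receptor of mitochondria, had a mean of −3.92 ± 0.44, and ITPRIPL2 had −3.49 ± 0.30. SERPINA3, the protease inhibitor antichymotrypsin, had −3.88, −3.94, −3.95 and −4.42 (mean −4.05 ± 0.19, adjusted p = 0.000402 in limma). SULF2, described above, was the remaining one, with replicates further apart than those of any of the others.

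Among genes measured in both clones on all 4 arrays the largest increase belonged to CCDC3, a secreted coiled-coil protein, with log2 ratios of 4.87, 4.18, 4.87 and 4.41 (mean 4.58 ± 0.08, 23.9-fold, adjusted p = 0.000140 in limma). All 4 arrays lay above 4. MFAP5, a protein of elastic microfibrils, had 3.40, 3.52, 3.51 and 3.47 (mean 3.48 ± 0.02, adjusted p = 0.000282 in limma). The 4 arrays of MFAP5 lay close together. Among the largest increases were also genes known from white blood cells, CD53, a tetraspanin, at 3.47 ± 0.09, and SP140, a nuclear body protein, at 2.65 ± 0.81. Of the list of 22 blood cell markers, 9 were tested, of which CD53 and CD68, a lysosomal protein of macrophages (1.54 ± 0.34, adjusted p = 0.0219 in limma), were higher and none lower (median 0.10), against 0.857% and 1.06% over all genes. Of the rest, 8, among them PTPRC, the pan-leukocyte antigen CD45, and SPI1, the myeloid factor PU.1, were not well above background on any array in either clone. CD33, a myeloid receptor, had −3.54 and −1.50 and did not pass (adjusted p = 0.0604 in limma). The summed signal of the 22 markers lay between 3438 and 4022 in KD1 and between 3272 and 3746 in CON over the 4 arrays, so that the ranges overlapped, and in such bulk samples fewer cells of a type and less RNA per cell cannot be told apart. Other large increases were SOBP (3.36 ± 0.17), GEM, a small GTPase that inhibits calcium channels (2.74 ± 0.59), AOX1, aldehyde oxidase (2.62 ± 0.69), SH3GL3, an endophilin of membrane curvature (2.51 in both replicates), and MAP7, a microtubule-binding protein (2.46 ± 0.24). HRK, a BH3-only promoter of apoptosis, had 1.23, 2.06, 2.92 and 3.49, higher in replicate 2 than in replicate 1 (adjusted p = 0.0286 in limma, and 0.0556 after median centring). Another HRK probe had 0.05 and 0.17 and was well above background in both clones on all 4 arrays. It had no value in replicate 1 of KD1 vs WT and so was left out of the fit.

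**Figure D2:**
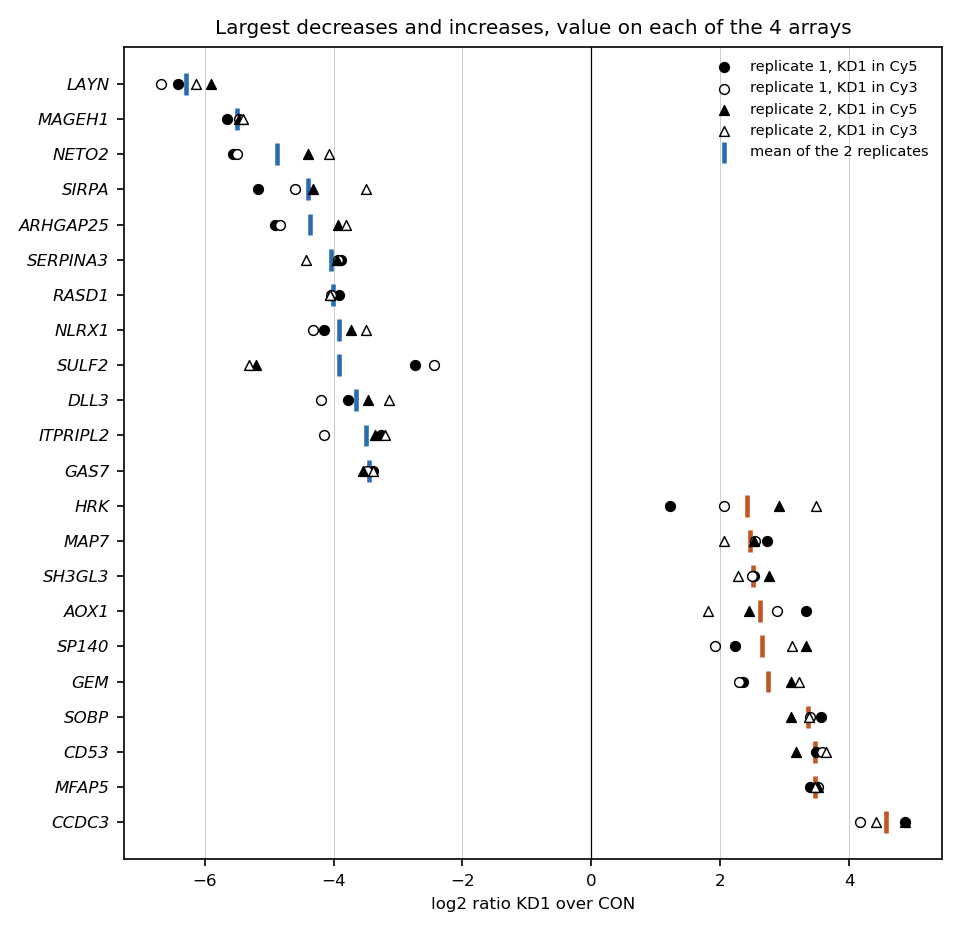
The plot of the largest decreases and increases shows, for 12 lower and 10 higher genes, the log2 ratio of KD1 over CON on each of the 4 arrays (circles for replicate 1, triangles for replicate 2, filled with KD1 in Cy5, open with KD1 in Cy3) and the mean as a bar. The arrays of a dye swap mostly lie closer together than the replicates of NETO2 do, and SULF2 and HRK show the widest gaps between replicates.

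A few transcripts were measured in only 1 of the clones, so that the fold is a lower bound. In each, the signal was well above background on all 4 arrays in the brighter clone and on none in the dimmer one. C5orf62 (now SMIM3) was at least 53.7-fold lower in KD1, TUSC1, a candidate tumor suppressor, at least 40.7-fold, and CLSTN2, a calsyntenin of synapses, at least 22.6-fold. SPESP1, a protein of the sperm head, was at least 9.58-fold lower and C7orf46 (now FAM221A) at least 7.04-fold lower, and these 5 were all the genes with a symbol of this kind by their brightest probe. In the other direction HNMT, which methylates histamine, was at least 15.7-fold higher and SLC40A1, the iron exporter ferroportin, at least 12.96-fold higher in KD1, and these 2 were all by the same rule. C9orf125, picked after its values were seen, had a lower mean than any of these, −7.71 at its brightest probe with KD1 well above background on 1 array, and −7.13 at another probe with KD1 so on none. The adjusted p in limma ranged from 2.01e-05 for TUSC1 to 0.00716 for CLSTN2. The bounds compare the mean of the brighter clone with the lowest signal well above background on each array, per channel after loess and quantile scaling of average intensities.

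Where a called gene had further probes past the signal filter, these moved in the same direction in nearly all cases. The 167 lower genes had 37 other probes in 31 genes, all 37 below 0 and 29 of them past the threshold. The 135 higher genes had 33 other probes in 28 genes, 32 above 0 and 16 past the threshold. The exception was a second probe of the metallothionein MT1X at −0.12, against 1.08 for its brightest probe, and metallothioneins are near-identical genes whose probes can share targets. Over all tested genes 84.2% of other probes had the sign of the brightest probe.

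KD1 vs WT and WT vs CON share extracts with this comparison, and their values stand beside it here for the same genes without a test of their likeness. Over the 167 lower genes the median of KD1 vs WT was −1.01 and that of WT vs CON −0.70, and over the 135 higher genes it was 0.57 and 1.00, with the genes chosen on KD1 vs CON. Over all probes tested in WT vs CON, 0.617% were lower and 0.802% higher. LAYN was at −6.05 when KD1 was set against WT, and at −0.18 when WT was set against CON (adjusted p = 0.728 in limma), and NLRX1 was −3.85 and 0.11 (adjusted p = 0.865). For both, WT lay near CON. SERPINA3 had −0.43 against WT but −4.00 for WT over CON (adjusted p = 0.00118), CCDC3 was −1.38 and 5.78 (adjusted p = 0.000280), and MFAP5 was 0.18 and 3.29 (adjusted p = 0.00114). In each of these WT also differed from CON, in the same direction as KD1, and the same held for SH3GL3, at 0.15 and 2.64 (adjusted p = 0.00302). SLC40A1 was 6.99 and HNMT 4.02 in WT vs CON, with adjusted p of 0.000187 and 0.00118 in limma. The 2 transcripts not measured in CON were thus also higher in WT than in CON. Among the largest decreases, ARHGAP25 and GAS7 were also lower in WT than in CON, at −2.39 and −2.80 (adjusted p = 0.0431 and 0.00202 in limma). The rest of these, apart from SERPINA3, did not pass in WT vs CON. Of the decreases measured in only 1 clone, CLSTN2 alone passed there, at −4.66 (adjusted p = 0.0250 in limma).

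**Figure D3:**
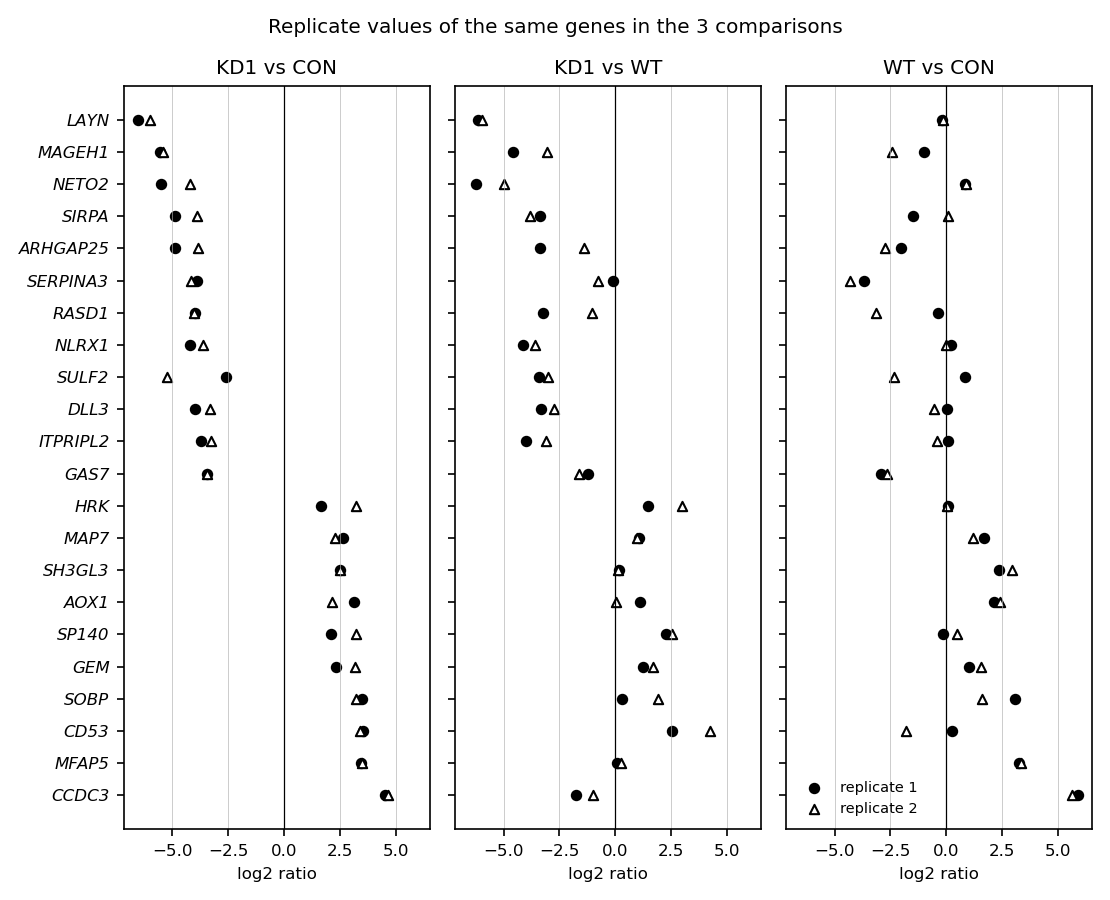
The plot of the 3 comparisons side by side gives the replicate values of the 12 largest decreases and 10 of the largest increases of KD1 vs CON as log2 ratios (circles for replicate 1, triangles for replicate 2). LAYN, NLRX1, DLL3 and ITPRIPL2 lie near 0 in WT vs CON, while SERPINA3, CCDC3, MFAP5 and SH3GL3 lie near 0 or on the other side in KD1 vs WT.

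Neural genes held the most calls of any list, but all gene lists were drawn up with earlier results of these data known. OLIG1, GPM6B, NKAIN1 and MDK are also among the lower genes that the study chose on arrays including these. The counts below therefore only describe the list and do not test it. Of 40 neuronal and glial genes, 16 were tested, 6 were lower and 1 was higher, against 1.06% and 0.857% over all genes, with a median of −0.39. OLIG1 and OLIG2, neighbouring genes on chromosome 21 that specify oligodendrocytes, were both lower (−5.19 and −1.71). The medians of the replicates, −0.05 and −0.13, were nearer to 0. GPM6B, a membrane proteolipid of neurons and glia, had −5.73, −4.80, −3.43 and −3.24 (adjusted p = 0.00431 in limma), and KD1 was well above background on 1 array. NKAIN1, a partner of the sodium pump, had −2.74 and −1.68 (adjusted p = 0.0183 in limma), and MDK, the growth factor midkine, −2.96 and −1.40 (adjusted p = 0.0323 in limma). With DCX these make the 6 lower genes. The higher gene was L1CAM, an adhesion molecule of axons, at 1.15 (adjusted p = 0.0403 in limma). TUBB3, NEFM, SYN1 and CHGA, general neuronal markers, lay between −0.09 and 0.03 and did not pass, and 24 of the 40 genes did not pass the signal filter.

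**Figure D4:**
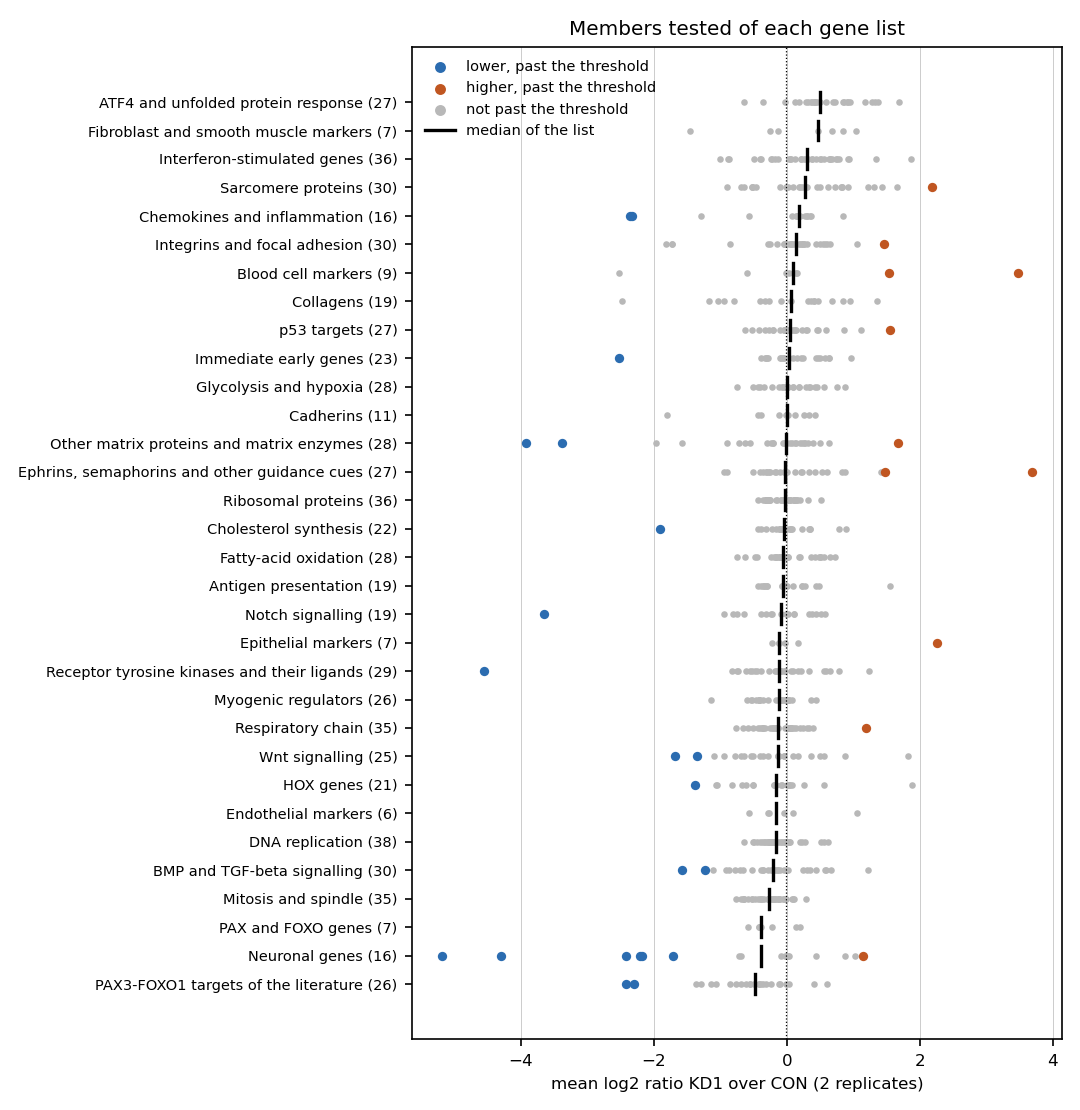
The plot of the gene lists shows every tested member by its mean log2 ratio of KD1 over CON, with the number tested in parentheses. Members past the threshold are blue when lower and orange when higher, the bar is the median of the list and the dotted line the median of all genes tested, and the medians run from −0.48 to 0.49.

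The lists of Notch, Wnt, BMP and TGF-beta, receptor tyrosine kinase, chemokine, immediate early and HOX genes each held 1 or 2 lower members and no higher one. The list of guidance cues, described with the matrix genes below, went the other way, with 2 higher members and no lower one. Over all genes tested 1.06% were lower and 0.857% higher, and at that share lists of this size would mostly hold no higher call. Of 19 Notch pathway genes tested, DLL3 alone passed, and the list median was −0.08. Of 25 Wnt genes, AXIN2, a feedback inhibitor that is itself a Wnt target, was lower with −1.97 and −1.41 (adjusted p = 0.0140 in limma) and SFRP4, a secreted Wnt antagonist, with −1.35 ± 0.49 (adjusted p = 0.0363 in limma, and 0.0575 after median centring). None of the 25 was higher. Of 30 genes of BMP and TGF-beta signalling, NOG, the BMP antagonist noggin, was lower at −1.57 ± 0.18 (adjusted p = 0.0481 in limma, and 0.0520 after median centring), and SMAD3, a transcription factor downstream of TGF-beta, at −1.23 ± 0.01 (adjusted p = 0.0269 in limma). Of 29 receptor tyrosine kinases and ligands, NTF3 alone passed, and the others lay between −0.82 and 1.23. Among 16 genes of chemokines and inflammation, CCL2, which attracts monocytes, had −2.67, −2.34, −2.44 and −1.98 (adjusted p = 0.00296 in limma), and CXCR7, a scavenging chemokine receptor, −1.91, −1.93, −2.76 and −2.68 (adjusted p = 0.00525 in limma). Both lay below −1.8 on every array. Of 23 immediate early genes, ARC, a regulator of synapses, was the only call, at −2.53 ± 0.56 (adjusted p = 0.00296 in limma), and the list median was 0.03. Of 21 HOX genes tested, HOXB13 was lower at −1.39 ± 0.15 (adjusted p = 0.0269 in limma, and 0.0553 after median centring), while HOXB9 had 0.97 and 2.81 (adjusted p = 0.0761). For KD1 over WT and WT over CON, AXIN2 had −0.36 and −1.30 and CXCR7 −0.67 and −1.68 (adjusted p of the latter values = 0.0444 and 0.0283 in limma). SFRP4 had −0.07 and −1.26, NOG 0.10 and −1.33, and SMAD3 −0.66 and −0.55. DLL3 had −3.03 and −0.26, NTF3 −3.25 and −0.85, and CCL2 −1.67 and −0.64. ARC had −1.83 and −0.90, and HOXB13 −1.89 and 0.38.

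Genes of the matrix and of adhesion held calls in both directions, against 1.06% lower and 0.857% higher over all genes tested. FBN2, the microfibril protein fibrillin 2, had −3.30, −3.16, −3.52 and −3.56 (adjusted p = 0.00124 in limma), and with SULF2 made the 2 lower of 28 matrix genes tested. LOX, which crosslinks collagen and elastin, was the higher one at 1.67 ± 0.07 (adjusted p = 0.0337 in limma). In WT vs CON, LOX was 2.03 (adjusted p = 0.0223) and FBN2 was 1.97 (adjusted p = 0.0189). Of 19 collagens tested none passed, with COL2A1, the collagen of cartilage, lowest at −2.48 (adjusted p = 0.0541) and COL16A1 highest at 1.35 (adjusted p = 0.193). Of 30 integrin and focal adhesion genes, ITGA9 was higher at 1.47 ± 0.10 (adjusted p = 0.0148 in limma). Its probes differed in size, since another called one was at least 11.3-fold higher, with CON well above background on 0 arrays. Of 27 guidance genes, SEMA3D, a secreted semaphorin, had 2.83, 3.10, 4.17 and 4.67 (adjusted p = 0.00609 in limma), with the CON signal well above background on 3 arrays, and the ephrin receptor EPHB2 1.47 ± 0.33 (adjusted p = 0.0248 in limma). Both were higher, and in WT vs CON they were 3.73 and 1.65 (adjusted p = 0.00876 and 0.0209 in limma). None of 11 cadherins passed. CLDN4, a tight junction protein, was higher at 2.26 ± 0.25 (adjusted p = 0.0162 in limma) as the only call among 7 epithelial markers tested of 18 on the array. Of 14 endothelial and 15 fibroblast and smooth muscle markers, 6 and 7 were tested and none passed (medians −0.16 and 0.47).

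The sarcomere list had a median on opposite sides of 0 in the replicates. Of 30 sarcomere genes tested, CSRP3, a LIM protein of the Z-disc, was the only call, with 1.24, 1.38, 2.99 and 3.15 (adjusted p = 0.0428 in limma, and 0.0676 after median centring). It was higher in replicate 2 than in replicate 1. Over all genes tested 1.06% were called lower and 0.857% higher. The list median was −0.19 in replicate 1 and 0.79 in replicate 2. UNC45B, a myosin chaperone, had 0.42 and 2.91, TTN, titin, 0.33 and 2.28, and TNNC1, cardiac and slow troponin C, −1.09 and 1.49. None of these passed, and the replicates of TNNC1 lay on opposite sides of 0. Of 26 myogenic regulators tested none passed (median −0.12), with MYOD1 at 0.21 and −0.16, and CHRND, a subunit of the acetylcholine receptor, at 0.44. The inhibitors of differentiation ID1 and ID3 had 0.98 and 0.43 in replicate 1 but −1.82 and −1.52 in replicate 2.

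Lists of proliferation, stress and interferon genes held no call, against 1.06% lower and 0.857% higher over all genes tested. At such shares lists of this size hold few calls. None of 35 mitosis and spindle genes passed, with a median of 0.01 in replicate 1 and −0.54 in replicate 2, PRC1 lowest at −0.77 and FOXM1 highest at 0.29. None of 38 DNA replication genes passed, with medians of 0.03 and −0.38. In both lists the median was near 0 in replicate 1 and below 0 in replicate 2. Of 27 genes of the ATF4 and unfolded protein response, 24 lay above 0 and 18 (66.7%) were higher on all 4 arrays, against 24.95% of all genes tested, with a median of 0.49, but none passed. HSPA5, the chaperone BiP, had 0.89 and 1.01 (adjusted p = 0.0790), and TRIB3, a target of ATF4, 0.40 and 2.98 (adjusted p = 0.260). Of 36 interferon-stimulated genes tested none passed, with medians of −0.23 and 0.59 in the replicates, and ISG15 had 0.84 and 2.89. None of 19 antigen presentation genes passed. Of 27 p53 targets tested none was lower, and the list median was 0.04.

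Metabolic lists were centred near 0. Their calls stand against 1.06% lower and 0.857% higher over all genes tested. Of 28 genes of fatty acid oxidation tested none passed, 8 were lower and 8 higher on all 4 arrays, and the median was −0.05. ECHS1 and HADHB, enzymes of the oxidation spiral, were highest at 0.72 and 0.65, and CPT1C was lowest. None of 28 glycolysis and hypoxia genes passed (median 0.01). Of 22 cholesterol synthesis genes, EBP, a sterol isomerase, was lower at −1.91 ± 0.46 (adjusted p = 0.0352 in limma), and the list median was −0.04. Of 35 respiratory chain genes, SDHA, the catalytic subunit of complex II, was higher at 1.18 ± 0.20 (adjusted p = 0.0396 in limma). None of 36 ribosomal protein genes passed, and they lay between −0.44 and 0.52. In all, 18 of the 32 lists held at least 1 call, and under normexp with loess DCX, CCL2 and CXCR7 were the only list members named above that kept theirs.

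The called genes were spread unevenly over the chromosomes. Chromosome 13 held 19 higher genes of 257 tested (7.39%), against 0.857% over all genes, and 2 lower ones. Its median was 0.43 in replicate 1 and 0.36 in replicate 2, with −0.12 for KD1 over WT and 0.44 for WT over CON, so that the median of KD1 lay near that of WT and above that of CON. Among the higher genes were GPC6, a glypican (3.74 ± 0.08, with the CON signal well above background on 3 arrays), CCNA1, the germline cyclin A (1.78 in both replicates), and IRS2, an adaptor of insulin signalling (1.64 ± 0.08). FOXO1 lies on the same chromosome and was not among them. Chromosome 21 held 6 lower genes of 166 (3.61%), against 1.06% over all genes, and 0 higher, with a median of −0.17 and −0.30 in the replicates and −0.21 in KD1 vs WT. They include SUMO3, a ubiquitin-like modifier (−7.67 and −4.36 in the replicates, with the KD1 signal well above background on 2 arrays), SLC19A1, the folate carrier (−2.20 ± 0.05), and TFF3, a secreted trefoil peptide (−1.46 ± 0.23). Chromosome X held 21 lower genes of 565 (3.72%), against 1.06% over all genes, and 6 higher, with a median of 0.03.

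**Figure D5:**
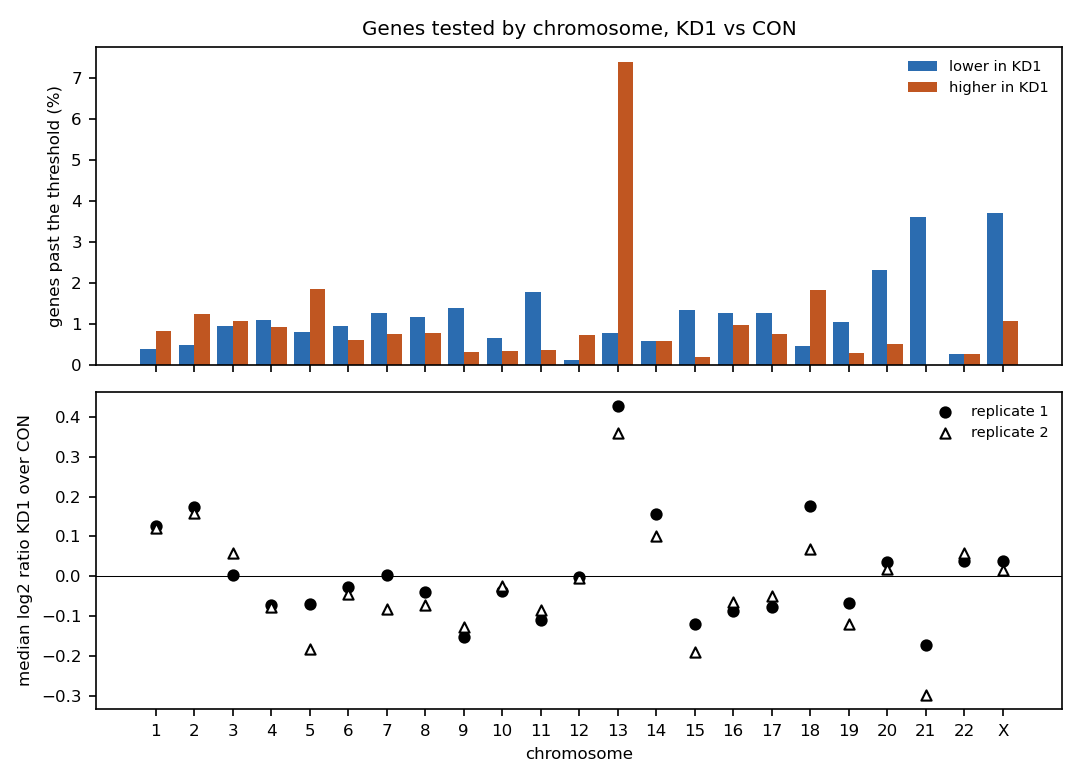
The plot by chromosome gives, in its upper panel, the percent of tested genes past the threshold that were lower (blue) or higher (orange) in KD1, and in its lower panel the median log2 ratio of KD1 over CON in each replicate. Chromosome 13 stands highest in both panels, at 7.39% and at medians of 0.43 and 0.36, and chromosome 21 has the lowest medians.

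Calls of the same direction lay side by side in some stretches, which were picked out after their values had been seen and so carry no test. At the end of the short arm of chromosome 5, between CCDC127 and ANKH on build hg18 (chr5:258120-14769917), 10 of 50 tested genes were higher, none was lower and 36 were higher on all 4 arrays, against 0.857% called higher and 24.95% higher on all 4 arrays over all genes. The median of the stretch was 0.85 in replicate 1 and 0.63 in replicate 2, with 0.38 for KD1 over WT and 0.29 for WT over CON. SDHA lies in it, as do ZDHHC11, a palmitoyltransferase (2.08 ± 0.41), PDCD6, a calcium-binding protein (1.31 ± 0.10), CLPTM1L (1.39 ± 0.15), IRX2, a homeobox gene (1.34 ± 0.11), and ANKH, a pyrophosphate transporter (1.89 ± 0.15). On the long arm of chromosome X, between SYTL4 and DCX (chrX:99816454-110424325), 12 of 71 tested genes were lower and none was higher, against 1.06% and 0.857% over all genes. They include 3 genes of the TCEAL family, TCEAL3 (−1.43), TCEAL5 (−1.44) and TCEAL6 (−1.38), which are close copies whose probes may share targets. The others named here are SYTL4, a regulator of secretory granules (−2.71 ± 0.14), MUM1L1 (−2.60 ± 0.59), MORC4 (−1.66 ± 0.40) and TMSB15B, a thymosin (−1.74 ± 0.40). The median of the whole stretch, at −0.12, lay closer to that of all genes than the lower genes did.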

How the data were processed

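The 4 arrays of KD1 over CON (500 ng of total RNA an extract) were read together with the 4 of KD1 vs WT and the 4 of WT vs CON. The authors hybridized Agilent 2-colour whole human genome arrays and processed them with Feature Extraction 10.5.1.1, per the file headers, and the deposited intensities are the processed signals of both dyes after background subtraction, detrending and lowess within the array. The deposited log10 ratios of red over green, per the file headers, and the table of log2 ratios deposited by the authors for the series were used as checks or as an alternative.

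From the processed signals, log2 ratios were taken, turned to KD1 over CON, averaged over the spots of a probe without flagged spots (153 probes with no value on an array were left out) and over each dye-swap pair. The 6 replicate values of the 3 comparisons were fitted in limma 3.58.1 (R 4.3.3) with 1 coefficient per comparison, 2 residual degrees of freedom, and p-values adjusted by Benjamini-Hochberg over the 21925 probes tested of 41000. The degrees of freedom were set to 2, where 6 values and 3 coefficients leave 3, because the third ratio of a replicate comes from the extracts of the other 2. In data simulated for KD1 vs CON on 21925 probes, 200 were changed, in equal numbers by a log2 of 2 and of 1. Of those changed by 2, 99.75% were recovered, and of those changed by 1, 53.55%, with 19.2 false calls on average over 20 runs. These false calls were a larger share of all calls than the threshold of 0.05 allows, so the adjusted p-values were too small in the simulation. The simulated extracts were drawn independently, whereas in the data the deviations of CON and KD1 correlated at 0.54. A gene is its brightest probe, probe positions are those of build hg18 in the files, and symbols are those of the array design. Named genes are the 12 largest changes each way among called genes measured in both clones, up to 6 each way measured in 1 clone, up to 4 called members of each list, and the genes of the fusion and of the study's microarray text, CPT1B, CPT1C, GAPDH and ACTB. Other list members and the genes of the chromosome paragraphs were picked after their values were seen. The members of the comparison and the gene lists were chosen with earlier results of these data known. Upstream sequences were matched by symbol, and LAYN, OLIG1 and DLL3 had none in the table used. Alternatives were other background correction and scaling, fits, filters and summaries of probes, and leaving out each replicate. A few genes that these rules name are not reported here.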

Additional observations from a re-analysis of the deposited data

How the results depend on the processing

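The 225 lower and 171 higher probes became 17 and 9 with normexp background correction and loess (3336 probes at an unadjusted p under 0.05) and 151 and 105 with median centring in place of lowess, where 255 of the 396 probes were shared. They became 528 and 478 in a fit of all 12 arrays with slide-wise dye effects and the dye-swap pair as a random block, and 138 and 115 with no filter on dim probes. With the series value table, with the KD1 vs CON values alone and with probes well above background only, the counts stayed within 1.5 times. Of the genes chosen by the naming rule, 46 lost their call under normexp with loess and 7 under median centring, and none changed direction. The 4 untested ones (CPT1A, EYA2, MCTP2 and SEPP1) came to between −0.24 and −0.06 under normexp. Medians of some lists close to 0 changed sign, those of glycolysis, cadherins and ribosomal proteins under normexp, that of matrix proteins under median centring, and those of cholesterol synthesis and cadherins with all probes of a gene averaged. The cause was not tested.

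The 376 genes at least 2-fold lower and 354 higher became 132 and 108 under normexp with loess, 629 and 723 when the signal had to pass on 1 array only, and 190 and 148 when every array had to differ at least 2-fold. Leaving out each replicate gave 467 to 575 lower and 308 to 632 higher genes. Leaving out a replicate left 1 value of KD1 vs CON, and the probe test could not be fitted.

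The fit on separate channels with 6 extracts and no replicate block called 120 lower and 81 higher probes, against 225 and 171 in the fit on ratios, in which each replicate's extracts are compared on shared arrays. Deviations of same-numbered extracts correlated at 0.54 between CON and KD1, −0.02 between CON and WT and −0.07 between KD1 and WT, so the numbers were not shown to pair the cultures.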
